A study of Mus musculus with 15 samples.

Results

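The integrins and leukocyte adhesion molecules of tumor-associated macrophages (TAMs) were examined as a list of 34 genes, chosen by symbol: the integrin α and β subunit genes, the immunoglobulin-family adhesion genes Icam1, Icam2, Icam4, Vcam1, Pecam1 and F11r, the selectin ligand gene Selplg and the hyaluronan receptor gene Cd44. The symbols matched 35 of the 55335 rows of the table, because Itgam names 2 rows. TAMs were sorted with antibodies to CD11b and F4/80 from tumors that Hepa1-6 cells, which derive from a mouse hepatoma, formed in the liver of C57BL/6 mice. The tumor cells carried a lentiviral control, miR-144 or miR-451a, with 5 TAM samples for each, so the miRNA was overexpressed in the tumor cells and not in the cells that were sequenced, and its level was not analysed here. All 3 groups share the strain, the cell line, the tumor site and the sort, and the age of the mice is not given in the sources used here. CD11b is the product of Itgam, so the protein of 1 member was part of the gate. The labels do not say whether the 5 samples of a group came from separate mice, so p-values measure the spread between these samples. The study gives fewer replicates for this experiment than there are samples, so some samples may share mice, in which case the p-values are too small.

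Integrins are receptors made of an α and a β chain that cross the plasma membrane, bind matrix proteins or other cells outside, and connect to the actin cytoskeleton inside. The β2 integrins are found on leukocytes, and in macrophages they take part in adhesion, migration and the uptake of complement-coated particles. Chains of the β1, β3, β5 and β7 families pair with other α chains to bind laminin, collagen, fibronectin, vitronectin and the vascular ligand VCAM-1, while selectin ligands and CD44 serve the first contacts of a leukocyte with the vessel wall or with hyaluronan.

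The 2 rows named Itgam are shown first because their values have to be read together. The first, ENSMUSG00000030786, is Itgam in GENCODE M21 (GRCm38), at chr7:128062640-128118491 on the plus strand. The second, ENSMUSG00000108596, is named Gm49368 there and lies at chr7:128062683-128128160 on the same strand, and it is called Gm49368 from here on. Of all 50-base stretches of the longest Itgam transcript, 72.4% also occur in other genes, most of them in Gm49368, and 77.8% of those of Gm49368 occur in other genes, most of them in Itgam. Aside from 43 bases at the 5′ end and 2 bases at an exon edge, the Itgam transcript is shared up to its base 3496, and its last 1186 bases are not. At that point the transcripts splice from the shared exon end at position 128116846 to different exons, which start at 128117306 for Itgam and at 128126808 for Gm49368. The 80 coding bases around this junction are given below, 5′ to 3′, with the shared bases in lower case and the bases that tell the genes apart in capitals.
Itgam: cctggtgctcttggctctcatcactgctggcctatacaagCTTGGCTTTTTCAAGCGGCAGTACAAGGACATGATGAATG
Gm49368: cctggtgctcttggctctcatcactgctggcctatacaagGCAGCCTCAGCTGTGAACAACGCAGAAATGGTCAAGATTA
Fragments from the shared part could not be assigned to 1 of the 2 genes by sequence, and how they were divided is not given in the sources used here.

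Itgam, Itgax and Itgad lie in 1 cluster on chromosome 7, with Itgax at chr7:128129547-128150657 and Itgad at chr7:128154376-128223816, both on the plus strand. Itgam and Itgax had opposite differences from control, so the 250 bases before the start of each are shown, 5′ to 3′ from RefSeq (GRCm38.p6), at chr7:128062390-128062639 and chr7:128129300-128129549. Capitals mark GAGGAA, the core bound by the myeloid factor PU.1, and TGANTCA, the element bound by AP-1, each on either strand.
Itgam: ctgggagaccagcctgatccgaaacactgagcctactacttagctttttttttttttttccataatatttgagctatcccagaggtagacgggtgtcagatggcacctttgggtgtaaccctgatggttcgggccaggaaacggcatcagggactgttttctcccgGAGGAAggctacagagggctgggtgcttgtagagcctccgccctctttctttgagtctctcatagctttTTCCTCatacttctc
Itgax: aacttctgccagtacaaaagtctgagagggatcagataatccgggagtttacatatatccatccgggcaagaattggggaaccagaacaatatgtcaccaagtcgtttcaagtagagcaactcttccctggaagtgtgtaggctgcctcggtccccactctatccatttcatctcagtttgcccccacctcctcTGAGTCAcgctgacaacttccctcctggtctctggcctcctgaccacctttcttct
The Itgam promoter held GAGGAA at 2 places, 84 bases before the start on the plus strand and 15 bases before it on the minus strand. The Itgax promoter held no GAGGAA and had 1 TGANTCA, 56 bases before its start. A promoter sequence was matched for 22 members, with 24 promoters in all, of which 10 held GAGGAA, against 23.3% of 32851 promoters of the same length. TGANTCA occurred in 2 of the 24, against 6.75% of all promoters, and TTCNNNGAA, the element bound by STAT factors, in 2 of the 24, against 7.02%. These are matches of letters and not measured binding.

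The values are FPKM, fragments scaled to transcript length and to the mapped fragments of the sample. The depth implied by the steps between low values was 15.5 to 30.3 M fragments per sample. Of the 9 macrophage markers, 9 had a mean of at least 1 FPKM, and their summed level was 10210 to 11120 FPKM in control and 18090 to 19940 FPKM in the miRNA groups. Most of it was Lyz2, at 6894 FPKM in control and 13171 and 12581 in the miRNA groups, and Cd68 went the other way, at 1444, 919 and 910.4 FPKM. Of 9 markers of hepatocytes and hepatoma cells, 8 were listed at 0 in all samples. Of the 11419 tested genes, those averaging 1 FPKM or more, 47.1% were higher and 20.1% lower in miR-144 TAMs than in control TAMs at an adjusted p of 0.05 (limma, Benjamini-Hochberg). For miR-451a the shares were 48.1% and 20.3%. The median gene was higher by 0.13 (miR-144) and 0.14 (miR-451a) on the log2(FPKM + 1) scale, and with samples centred on their medians the higher and lower calls were 3512 and 3511 for miR-144 and 3577 and 3636 for miR-451a. Both comparisons use the same 5 control samples. In sorted bulk samples, fewer cells of a type and less RNA per cell cannot be told apart.

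Of the 35 adhesion rows, 21 had a mean of at least 1 FPKM and were tested. In miR-144 TAMs 12 were higher and 6 lower than in control, and in miR-451a TAMs 13 were higher and 5 lower. These are 57.1% and 28.6% of the 21 for miR-144, against 47.1% and 20.1% of all tested genes, and 61.9% and 23.8% for miR-451a, against 48.1% and 20.3%. With median centring the split was 11 higher and 7 lower in both comparisons (52.4% and 33.3%), against 30.8% and 30.7% of all tested genes for miR-144 and 31.3% and 31.8% for miR-451a. Among the 14 rows with a mean of at least 5 FPKM 6 rose and 6 fell with miR-144, while with miR-451a 6 rose and 5 fell. Of all 6639 genes at that level 46.9% and 25% did with miR-144, and 47.6% and 25% with miR-451a. The same 12 rows were higher and the same 5 lower in both comparisons. Since both use the same control samples, such overlap of calls is not independent. The share of all tested genes with the same call in both was not computed. The groups did not overlap in 18 of the 21 rows for miR-144 and in 16 for miR-451a, against 53.9% and 55.2% of all tested genes. The median difference of the 21 rows was 0.50 for miR-144 and 0.57 for miR-451a on the log2(FPKM + 1) scale, and -0.06 and 0.16 over the 14 rows of at least 5 FPKM. Among the 21 are Itga3, Itga9, Itgal and Vcam1, whose control mean was under 1 FPKM and which passed the filter through the miRNA groups. Likewise Itga4 and Itga6, with control means of 4.71 and 3.95 FPKM, reached a mean of 5 FPKM through the miRNA groups. The direction of these 2 of the 6 rises at that level is set by the filter. Itgax and Itgb3 reached that level through control. In miR-144 and miR-451a TAMs Itgax averaged 3.63 and 3.43 FPKM and Itgb3 2.48 and 2.45 FPKM. The direction of these 2 falls at that level is likewise set by the filter. The other 14 rows were under 1 FPKM on average and are described from the fit over all 29540 genes above 0.

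**Figure D1:**
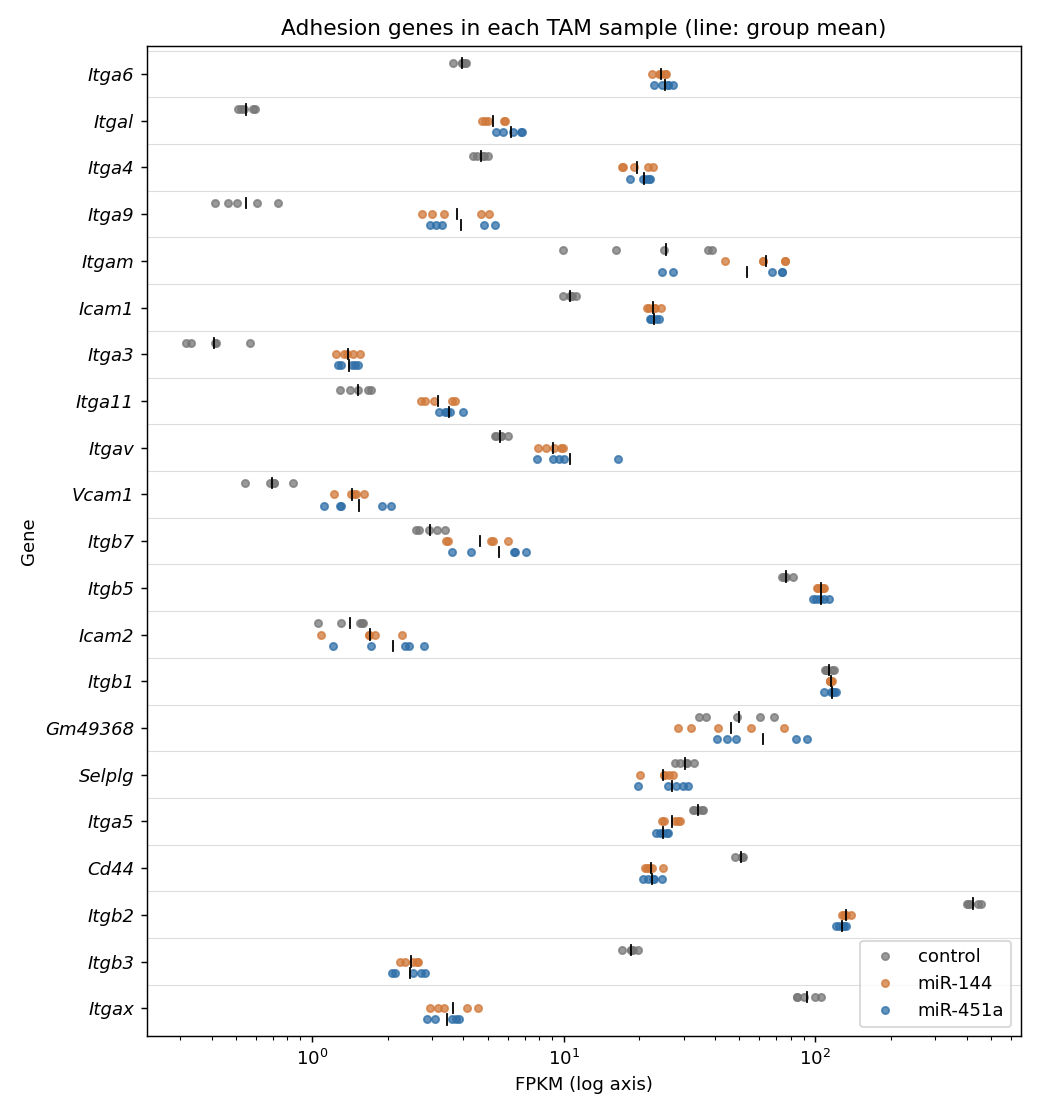
FPKM of the 21 tested rows (vertical axis, ordered by the miR-144 difference) in each of the 15 samples on a log axis, with points for samples colored by group and a black line at the group mean. Itgax, Itgb3 and Itgb2 show control samples far to the right of both miRNA groups, Itga6, Itgal, Itga4 and Itga9 show them far to the left, and the 2 miRNA groups lie on top of each other.

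The largest fall of the list was that of Itgax, a β2 integrin chain. Itgax encodes CD11c, the α chain of complement receptor 4 and a surface marker of dendritic cells and of some tissue macrophages. Itgax was at 90.4, 84.3, 106, 100.2 and 84.6 FPKM in control samples 1 to 5. In miR-144 TAMs it was at 3.34, 2.94, 4.56, 4.15 and 3.16 FPKM. In miR-451a TAMs the values were 3.09, 3.6, 3.84, 3.75 and 2.88 FPKM. Every miRNA sample was thus below every control sample, and the mean fell from 93.1 ± 9.62 FPKM (SD, n = 5) by 25.6-fold in miR-144 and 27.1-fold in miR-451a TAMs. The difference was -4.35 (SE 0.10, adjusted p = 1.8e-14) and -4.41 (SE 0.10, adjusted p = 1.5e-14) on the log2(FPKM + 1) scale, which ranked 19 and 18 among 11419 genes by size of fall. Itgad, the neighboring CD11d gene, was at 0.486 ± 0.11 FPKM in control, 0.239 ± 0.0907 in miR-144 and 0.190 ± 0.0942 in miR-451a TAMs, and it too was lower in both (adjusted p = 0.0063 and 0.0013). Its reads are not fully its own, since 15.2% of the 50-base stretches of Itgad occur in other genes, most of them in Itgax. The 6 dendritic cell markers, none with a mean of 1 FPKM, summed to 0.300 to 0.420 FPKM in control and 0.548 to 0.817 FPKM in the miRNA samples. The markers did not all go 1 way, with Zbtb46 at 0.0955 FPKM in control and 0.0516 and 0.0767 in the miRNA groups, and Siglech at 0.0134, 0.203 and 0.157. The part of dendritic cells in the Itgax difference was not tested.

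Itgb2 encodes CD18, the β chain shared by CD11a, CD11b, CD11c and CD11d, and had the highest FPKM of all members. Control samples were at 414, 400.1, 455, 441 and 404 FPKM. The miR-144 samples were at 130.4, 128, 131, 133 and 139 FPKM. The miR-451a samples were at 121, 130.1, 129, 124 and 132 FPKM. The control range lay well above both others. Itgb2 fell 3.20-fold in miR-144 TAMs (log2 difference -1.67, SE 0.04, adjusted p = 3.1e-14) and 3.32-fold in miR-451a TAMs (-1.72, SE 0.04, adjusted p = 2.0e-14). Neutrophils also carry β2 integrins, and the 7 neutrophil markers summed to 64.9 to 79.2 FPKM in control and 44.2 to 53.3 FPKM in the miRNA samples. Csf3r made up nearly all of it, and Ly6g and Elane were each listed at 0 in 14 of 15 samples. Their part in the Itgb2 difference was not tested.

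Itgal, the α chain of LFA-1, which binds the ICAMs, differed the other way. It was at 0.581, 0.522, 0.536, 0.509 and 0.597 FPKM in control. It reached 4.99, 5.81, 4.88, 4.75 and 5.85 FPKM in miR-144 TAMs. It reached 6.28, 6.83, 5.72, 5.4 and 6.75 FPKM in miR-451a TAMs. No miRNA sample came near the control values, and the mean rose 9.58-fold and 11.3-fold (log2 differences 2.01 and 2.21, SE 0.06, adjusted p = 7.5e-13 and 2.4e-13). LFA-1 is abundant on lymphocytes, so their markers were read beside it. The sum of 9 T and NK cell markers was 1.53 to 1.92 FPKM in control and 5.45 to 9.57 FPKM in the miRNA samples. Most of it was Cd4, and the NK cell marker Klrb1c went the other way without overlap, from 0.319 ± 0.0871 FPKM in control to 0.113 ± 0.0482 and 0.0721 ± 0.0404. Cd3e, Cd3g and Ncr1 were listed at 0 in all samples. The 4 B cell markers summed to 0.138 to 0.375 FPKM in control and 1.12 to 1.73 FPKM in the miRNA samples, most of it Cd79b. Their part in the Itgal difference was not tested.

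Itgam encodes CD11b, the α chain of complement receptor 3. Its own row was at 38.8, 9.99, 37.4, 25.0 and 16.1 FPKM in control, 76.1, 75.7, 43.9, 61.8 and 61.8 in miR-144 and 74.0, 27.3, 73.5, 67.4 and 24.6 in miR-451a TAMs. Gm49368 was at 34.5, 68.5, 37.0, 49.1 and 60.5 FPKM in control, 28.4, 32.2, 74.9, 55.4 and 41.2 in miR-144 and 40.8, 93.2, 44.6, 48.5 and 84.0 in miR-451a TAMs. Within each group, the sample with the lowest Itgam value or the next to it had the highest Gm49368 value. The share of Gm49368 in the sum of both rows ran from 27.2% to 87.3% over the 15 samples and overlapped between the groups. The sums varied far less, at 75.4 ± 2.14 FPKM in control, 110.3 ± 7.29 in miR-144 and 116 ± 4.48 in miR-451a TAMs, and the control sums did not overlap the others. Taken as 1 gene, Itgam was higher by 0.54 (SE 0.04, adjusted p = 2.6e-08) in miR-144 and by 0.61 (SE 0.04, adjusted p = 6.2e-09) in miR-451a TAMs. The Itgam row alone was higher by 1.43 (SE 0.39, adjusted p = 0.0044) and 1.04 (SE 0.39, adjusted p = 0.026). Gm49368 alone did not pass the test (-0.14, adjusted p = 0.69, and 0.28, adjusted p = 0.42, SE 0.30). The call of the Itgam row for miR-451a was lost with median centring (adjusted p = 0.055), without the filter (0.059) or with only the 2 groups compared in the fit (0.054). It was also lost without control sample 2 (0.075), control sample 5 (0.063) or miR-451a sample 1 (0.068), 3 (0.068) or 4 (0.062).

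**Figure D2:**
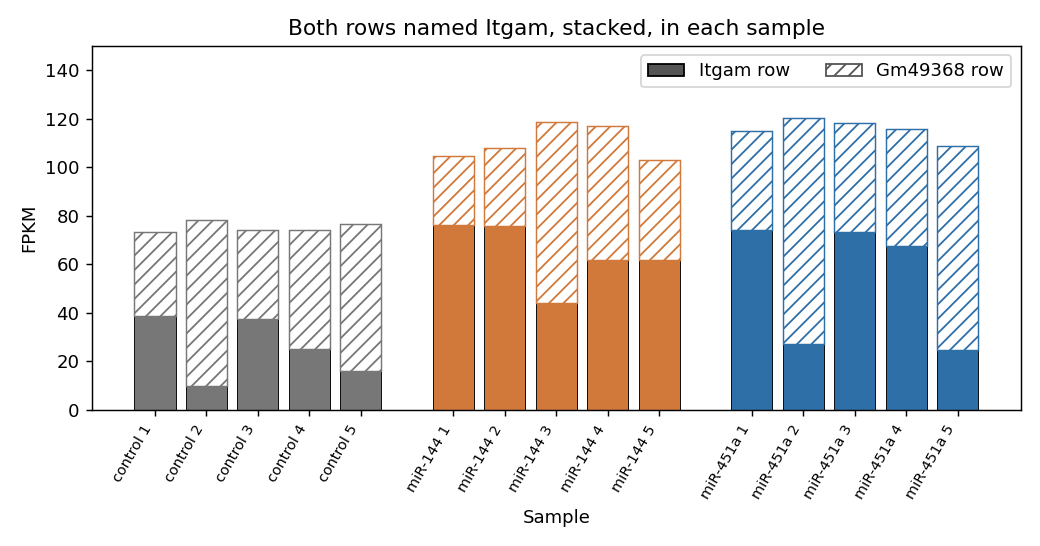
FPKM of both rows named Itgam, stacked, in each of the 15 samples, with the Itgam row solid and the Gm49368 row hatched. The height of the bars separates control (73.3 to 78.5 FPKM) from both miRNA groups (103 to 120.5 FPKM), while the division between the rows changes from sample to sample.

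The α4, α9 and β7 chains, which bind vascular and matrix ligands, were higher in the miRNA groups. Itga4, the α4 chain, binds VCAM-1 and fibronectin. It was at 4.37, 4.82, 4.79, 5.01 and 4.54 FPKM in control, 17.1, 19.1, 22.6, 21.7 and 17.2 in miR-144 and 20.6, 21.3, 21.8, 22.0 and 18.3 in miR-451a TAMs. The groups were apart by far more than their spread, with a 4.15-fold and a 4.42-fold rise (log2 differences 1.84 and 1.93, SE 0.07, adjusted p = 9.2e-12 and 4.9e-12). Itga9, whose product binds tenascin C, osteopontin and VCAM-1, was at 0.506, 0.465, 0.735, 0.606 and 0.413 FPKM in control, 3.01, 3.34, 5.06, 4.70 and 2.73 in miR-144 and 3.29, 3.12, 4.85, 5.35 and 2.95 in miR-451a TAMs. Its values spread more within groups than those of Itga4, but no sample of either miRNA group reached the control range. The Itga9 rise was 6.92-fold and 7.18-fold (log2 differences 1.60 and 1.64, SE 0.15, adjusted p = 2.6e-07 and 1.9e-07).

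Itgb7, the β chain that pairs with α4 to bind MAdCAM-1 and with αE to bind E-cadherin, was at 2.94 ± 0.325 FPKM in control, 4.66 ± 1.16 in miR-144 and 5.55 ± 1.51 in miR-451a TAMs. The lowest miR-144 value, 3.43 FPKM, was just above the highest control value, 3.37 FPKM. The rise of Itgb7 passed the test in both (log2 differences 0.50 and 0.70, SE 0.16, adjusted p = 0.013 and 0.0013), and the miR-144 call was lost with median centring (adjusted p = 0.060) or quantile normalization (0.075). Mast cells are known for β7 chains, and the 5 mast cell and basophil markers, none with a mean of 1 FPKM, summed to 0.198 to 0.478 FPKM in control and 0.612 to 1.74 FPKM in the miRNA samples. Mcpt4 was listed at 0 in all of them, and the part of these cells in the Itgb7 difference was not tested. Itgae, the αE chain, was at 0.0429 ± 0.0113, 0.0996 ± 0.0344 and 0.0757 ± 0.0172 FPKM, near the level of 3 fragments (0.0502 FPKM). Its rise was called for miR-144 (adjusted p = 0.0061), and for miR-451a its adjusted p was 0.093.

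Of the laminin-binding α chains, α3, α6 and α7 were higher in both comparisons. Itga6, the α6 chain, was at 4.11, 4.06, 3.65, 3.96 and 3.95 FPKM in control, 24, 25.6, 25.3, 24.5 and 22.5 in miR-144 and 25.9, 24.7, 25.9, 27.3 and 22.8 in miR-451a TAMs. The replicates were tight and the groups far apart, and Itga6 had the largest rise of the 21 rows on the log2(FPKM + 1) scale in both comparisons (6.18-fold and 6.42-fold, log2 differences 2.36 and 2.41, SE 0.05, adjusted p = 4.1e-15 and 2.9e-15). It ranked 45 and 44 of 11419 genes by size of rise. Itga3, the α3 chain, was at 0.409 ± 0.0993 FPKM in control, 1.4 ± 0.114 in miR-144 and 1.41 ± 0.114 in miR-451a TAMs, without overlap (log2 differences 0.77 and 0.77, SE 0.06, adjusted p = 9.4e-09 and 8.2e-09). Itga7, the α7 chain of muscle, stayed at or under 0.164 FPKM in all samples and was called higher in both (adjusted p = 0.00079 and 0.019). Itgb4, the β4 partner of α6 in epithelia, was at or under 0.0564 FPKM, with 9 of 15 samples at or under the level of 3 fragments, and did not pass the test (adjusted p = 0.83 and 0.35).

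Among the chains of the vitronectin and fibronectin receptors, directions were mixed. Itgb3, the β3 chain, which pairs with αv, or with αIIb on platelets, was at 18.9, 18.5, 19.8, 18.6 and 17.1 FPKM in control, 2.61, 2.65, 2.25, 2.35 and 2.53 in miR-144 and 2.72, 2.8, 2.08, 2.14 and 2.51 in miR-451a TAMs. The control samples were several-fold above all others, and the mean fell 7.49-fold and 7.57-fold (log2 differences -2.49 and -2.51, SE 0.06, adjusted p = 4.2e-14 and 3.7e-14). Itga2b, the αIIb chain of platelets, was low in all samples and higher in the miRNA groups, at 0.248 ± 0.0403, 0.390 ± 0.0686 and 0.505 ± 0.0671 FPKM (adjusted p = 0.0085 and 9.6e-05). The 8 platelet and megakaryocyte markers summed to 10.2 to 17.8 FPKM in control and 4.91 to 14.8 FPKM in the miRNA samples, and only Pf4 had a mean of 1 FPKM. The lower sum was that of Pf4, at 12.5 ± 3.49, 6.65 ± 3.01 and 7.32 ± 4.31 FPKM. Ppbp was at 0.408, 0.763 and 0.988 FPKM on average and Gp1ba at 0.301, 0.623 and 0.613, higher in the miRNA groups, and Gp9, Gp5, Gp6 and Gp1bb were each under 0.3 FPKM on average in every group. Their part in the Itgb3 difference was not tested.

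Itgav, the αv chain, was at 5.36, 5.65, 5.63, 5.40 and 6.02 FPKM in control, 9.14, 9.93, 8.54, 7.90 and 9.80 in miR-144 and 9.10, 16.5, 7.88, 10.01 and 9.6 in miR-451a TAMs. miR-451a sample 2 stood apart from its group, and without it the Itgav difference was 0.62 instead of 0.77 (SE 0.13, adjusted p = 0.00011 with all samples). For miR-144 the difference was 0.60 (SE 0.13, adjusted p = 0.0010). Itgb5, the β5 partner of αv, was at 76.5 ± 3.10 FPKM in control, 105 ± 2.92 in miR-144 and 105 ± 6.01 in miR-451a TAMs. Its groups did not overlap either (log2 differences 0.46 and 0.45, SE 0.04, adjusted p = 8.5e-08 and 9.5e-08). The αv chain and its β5 partner were therefore higher while its β3 partner was lower.

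Itgb8, an αv partner known for activating latent TGF-β, was at 0.375, 0.377, 0.488, 0.457 and 0.357 FPKM in control. It was at 0.0157, 0.0354, 0.0120, 0.0403 and 0.0180 FPKM in miR-144 and at 0.0232, 0.0328, 0.0297, 0.0709 and 0.0155 FPKM in miR-451a TAMs. The miRNA samples lay around the level of 3 fragments (0.0230 FPKM), so no fold is given. The fall passed the test (adjusted p = 1.9e-09 and 2.5e-09). Itgb6, an epithelial partner of αv, was listed at 0 in all 15 samples, where 3 fragments correspond to 0.0402 FPKM.

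Itga5, the α5 chain of the fibronectin receptor, was at 35.4, 32.9, 35.8, 32.7 and 34.2 FPKM in control, 27.6, 28.5, 25.2, 24.6 and 29.1 in miR-144 and 24.9, 25.9, 24.3, 23.3 and 26.1 in miR-451a TAMs. The fall was small beside those of Itgax and Itgb3 but larger than the spread, at 1.27-fold and 1.37-fold (log2 differences -0.33 and -0.44, SE 0.05, adjusted p = 2.3e-05 and 1.0e-06). Itga8, the α8 chain, was at or under 0.150 FPKM and did not pass the test (adjusted p = 0.093 and 0.11).

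Itgb1, the β1 chain shared by α1 to α11 and αv, was at 113 ± 4.46 FPKM in control, 115 ± 0.878 in miR-144 and 116 ± 4.95 in miR-451a TAMs, with overlapping groups. The log2 differences were 0.03 and 0.04 (SE 0.03, adjusted p = 0.50 and 0.34). With median centring they became -0.108 in both and passed the test (adjusted p = 0.0071 and 0.0068), and after rescaling to TPM they were 0.10 and 0.12 and passed it as higher (0.021 and 0.0060). The direction of Itgb1 thus rested on the scaling.

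The collagen-binding α chains were low. Itga11, the α11 chain of fibroblasts, was at 1.53 ± 0.176 FPKM in control, 3.17 ± 0.451 in miR-144 and 3.50 ± 0.288 in miR-451a TAMs and did not overlap (log2 differences 0.72 and 0.83, SE 0.07, adjusted p = 4.4e-07 and 7.9e-08). The 7 fibroblast and stellate cell markers summed to 71.6 to 90.6 FPKM in control and 94.4 to 163 FPKM in the miRNA samples. Most of this was Col1a1, 4 of the 7 had a mean of 1 FPKM, and Lrat was listed at 0 in all samples. Their part in the Itga11 difference was not tested. Itga1 was at 0.209 ± 0.00747, 0.102 ± 0.0264 and 0.132 ± 0.0411 FPKM and lower in both (adjusted p = 0.00036 and 0.0049). Itga10 was at 0.166 ± 0.0679, 0.316 ± 0.0648 and 0.313 ± 0.0726 FPKM and higher in both (adjusted p = 0.011 and 0.012), and 32% of its 50-base stretches occur in other genes. Itga2, the α chain of a platelet and epithelial collagen receptor, was at or under 0.0464 FPKM, with 10 of 15 samples at or under the level of 3 fragments, and did not pass the test.

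**Figure D3:**
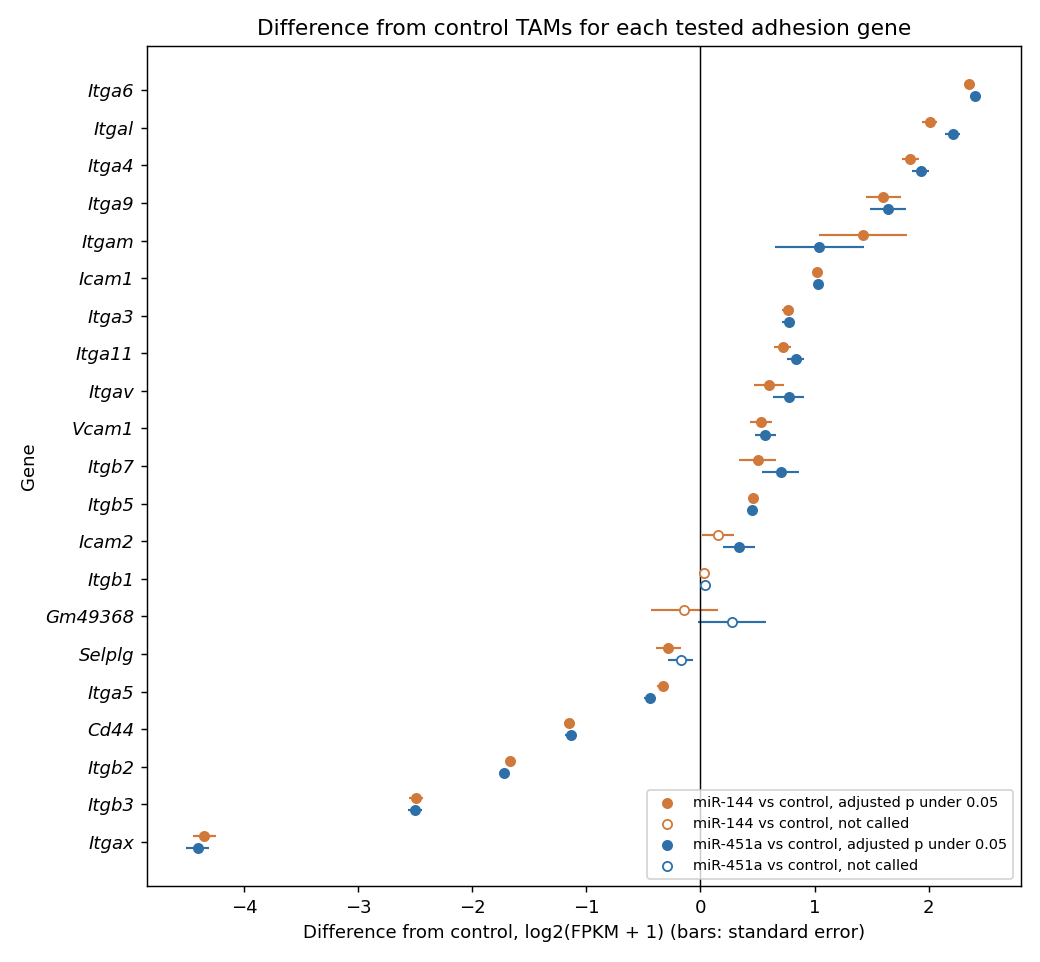
Difference from control in log2(FPKM + 1) (horizontal axis) for the 21 tested rows, with miR-144 in orange and miR-451a in blue, bars for the standard error and filled points for an adjusted p under 0.05. The rows run from Itgax near -4.4 to Itga6 near 2.4, and the 2 colors lie farthest apart, with the widest bars, for Itgam and for Gm49368, whose points fall on opposite sides of 0.

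The make-up of the integrin chains in each group was described by shares of FPKM, which divide by length but depend on the transcript models of each gene. The summed FPKM of the 19 α rows differed little, with 214 to 234 FPKM in control, 199 to 221 in miR-144 and 204 to 228 in miR-451a samples. Within it, the mean share of Itgax was 42.0% in control, 1.73% in miR-144 and 1.58% in miR-451a TAMs. Itga6 went from 1.79% to 11.7% and 11.7%, and Itga4 from 2.13% to 9.33% and 9.57%. The summed FPKM of the 8 β rows was 615 to 664 in control, 355 to 366 in miR-144 and 351 to 362 in miR-451a samples. Itgb2 made up 66.6% of it in control, 36.7% in miR-144 and 35.7% in miR-451a TAMs. Itgb1 held 17.9%, 32% and 32.6%, although its level in FPKM hardly differed. Itgb5 held 12.1%, 29.3% and 29.4%.

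**Figure D4:**
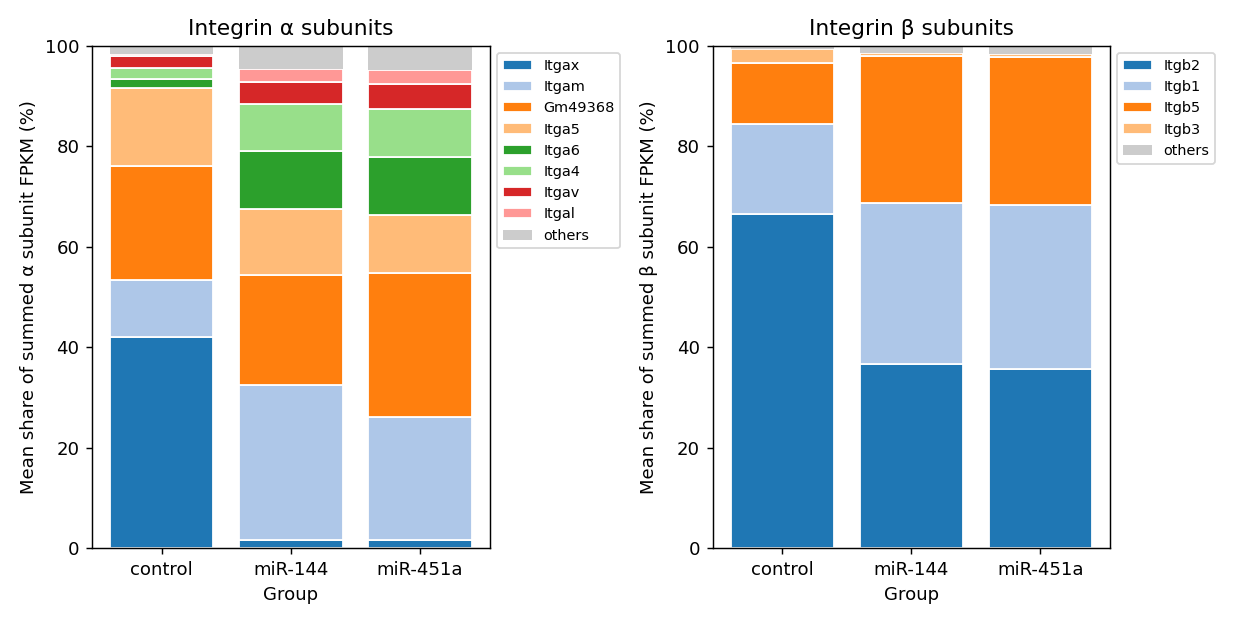
Mean share (%) of each subunit in the summed FPKM of the α rows (left) and β rows (right) in each group, with subunits that stay under 2% in every group joined as others. The Itgax block fills 42.0% of the control α bar and is a thin line in both miRNA bars, and the Itgb2 block shrinks from 66.6% to 36.7% and 35.7% of the β bar.

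Among the counter-receptors of the leukocyte integrins, Icam1, which binds LFA-1 and CD11b, was at 10.6, 10.7, 10.8, 9.94 and 11.2 FPKM in control, 21.6, 23.0, 22.9, 24.4 and 21.8 in miR-144 and 24, 22.3, 22.3, 22.0 and 23.3 in miR-451a TAMs. The groups did not overlap, and Icam1 rose 2.13-fold and 2.14-fold (log2 differences 1.03 and 1.03, SE 0.04, adjusted p = 4.7e-12 and 4.1e-12). Vcam1, the ligand of α4 and α9 chains, was at 0.696 ± 0.105 FPKM in control, 1.45 ± 0.143 in miR-144 and 1.54 ± 0.419 in miR-451a TAMs, and rose in both (log2 differences 0.53 and 0.57, SE 0.09, adjusted p = 0.00014 and 6.7e-05). F11r, the junctional molecule JAM-A, had a mean under 1 FPKM over all samples and was at 0.281, 0.281, 0.155, 0.318 and 0.268 FPKM in control, 1.45, 1.29, 1.25, 1.09 and 1.39 in miR-144 and 1.02, 1.16, 0.944, 1.02 and 1.69 in miR-451a TAMs. It too was higher in every miRNA sample (log2 differences 0.86 and 0.77, SE 0.08, adjusted p = 8.9e-07 and 2.6e-06).

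Icam2, an LFA-1 ligand of endothelium and leukocytes, was at 1.42 ± 0.232 FPKM in control, 1.70 ± 0.424 in miR-144 and 2.10 ± 0.625 in miR-451a TAMs, with overlapping groups. Its difference was 0.15 (SE 0.14, adjusted p = 0.36) for miR-144 and 0.34 (SE 0.14, adjusted p = 0.045) for miR-451a, and the latter call was lost with a pseudocount of 0.1, without the filter, with median centring and with quantile normalization (adjusted p = 0.052 to 0.37). It was also lost without control sample 1, 2, 3 or 4, miR-144 sample 1, 2 or 4, or miR-451a sample 1, 2 or 5 (adjusted p = 0.051 to 0.12). Pecam1, an adhesion molecule of endothelium, platelets and leukocytes, was at 0.197 ± 0.0430, 0.126 ± 0.0363 and 0.163 ± 0.0347 FPKM and was lower in miR-144 TAMs (adjusted p = 0.033), with an adjusted p of 0.34 for miR-451a. The 9 endothelial markers summed to 3.65 to 4.2 FPKM in control and 4.68 to 6.07 FPKM in the miRNA samples, most of it Kdr, with Clec4g at 0 throughout. Stab2, the next most abundant, was at 0.925 ± 0.122, 0.807 ± 0.427 and 0.866 ± 0.345 FPKM. The part of endothelium in the Pecam1 difference was not tested. Icam4, an erythroid ligand, was at or under 0.494 FPKM, with 11 of 15 samples at or under the level of 3 fragments (0.188 FPKM), and did not pass the test (adjusted p = 0.14 and 0.96).

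Cd44, the hyaluronan receptor, was at 51.2, 48.2, 51.3, 51.3 and 51.8 FPKM in control, 21.4, 21.8, 24.8, 22.4 and 21.2 in miR-144 and 20.7, 22.7, 22.9, 24.7 and 21.6 in miR-451a TAMs. It fell 2.27-fold and 2.25-fold without overlap (log2 differences -1.15 and -1.14, SE 0.05, adjusted p = 1.4e-11 and 1.5e-11). Selplg, which encodes the selectin ligand PSGL-1, was at 30.2 ± 2.04 FPKM in control, 24.8 ± 2.73 in miR-144 and 26.9 ± 4.50 in miR-451a TAMs. The fall passed the test for miR-144 (-0.28, SE 0.11, adjusted p = 0.029), and for miR-451a the difference was -0.18 (SE 0.11, adjusted p = 0.16). The miR-144 call was lost without control sample 3, 4 or 5 or miR-144 sample 4 (adjusted p = 0.052 to 0.083) and after rescaling to TPM (0.091), and with median centring the miR-451a difference was -0.32 and passed the test (adjusted p = 0.016).

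In the fit over all 29540 genes, 17 adhesion rows were higher and 9 lower in miR-144 TAMs, where 23.1% and 9.65% of all genes were, and 15 were higher and 8 lower in miR-451a TAMs, where 24.5% and 9.69% were. Itgb6, at 0 throughout, is not among these 34 rows. In this fit the miR-144 call of Selplg (adjusted p = 0.064) and the miR-451a calls of Itgam and Icam2 were lost.

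Between the miRNA groups, 0 of the 21 rows passed the test (limma), as did 0% of all 11419 genes, of which 596 had an unadjusted p under 0.05. Of the 21 rows, 2 had such a p. Itgal was higher in miR-451a than in miR-144 TAMs by 0.20 (SE 0.06, unadjusted p = 0.0073, adjusted p = 0.83), and Itga5 was lower by 0.11 (SE 0.05, unadjusted p = 0.038, adjusted p = 0.95). No row was without overlap between the miRNA groups. The widest differences, 0.42 for Gm49368 and -0.38 for Itgam (SE 0.30 and 0.39), belonged to the pair that share sequence, and their sum differed by 0.07 (SE 0.04, adjusted p = 0.98). A p that misses the threshold does not show that the groups are alike.

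Genes that act with integrins were described as 5 lists of 112 genes in all, of which 82 averaged 1 FPKM or more. In miR-144 TAMs 52 of the 82 were higher and 14 lower, and in miR-451a TAMs 56 were higher and 16 lower. These are 63.4% and 17.1% of the 82 for miR-144 and 68.3% and 19.5% for miR-451a, against 47.1% and 20.1%, and 48.1% and 20.3%, of all tested genes. With median centring the counts became 44 and 20 (53.7% and 24.4%, against 30.8% and 30.7% of all tested genes in that fit), and 47 and 18 (57.3% and 22.0%, against 31.3% and 31.8%). The median difference of the 82 genes was 0.30 and 0.38, against 0.13 and 0.14 over all tested genes. Of 28 tested genes of integrin activation and cytoskeletal linkage, 19 were higher and 4 lower for miR-144 (67.9% and 14.3%) and 20 and 5 for miR-451a (71.4% and 17.9%). With median centring 16 and 8 (57.1% and 28.6%), and 17 and 7 (60.7% and 25%), were called, beside the shares of all genes in that fit just given. The genes of talin, RIAM, kindlin-3 and Rap1B, which switch integrins to the active state, were all higher. Tln1 went from 84.4 ± 4.29 FPKM to 104 ± 3.87 and 106 ± 4.90 (log2 differences 0.30 and 0.33, SE 0.04), and Apbb1ip, the RIAM gene, from 12.5 ± 0.337 to 23.3 ± 0.892 and 23.7 ± 0.930 (0.85 and 0.87, SE 0.03). Rap1b differed by 0.53 and 0.50 (SE 0.03) and Fermt3, the kindlin-3 gene, by 0.23 and 0.29 (SE 0.06), and the miR-144 call of Fermt3 was lost with median centring (adjusted p = 0.18). Zyx, named here after its values were seen, had the largest fall of this list (-1.115 and -1.059, SE 0.06).

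Of 22 genes of integrin-proximal signalling, 14 were higher and 4 lower for miR-144 (63.6% and 18.2%, against 47.1% and 20.1% of all genes) and 14 and 5 for miR-451a (63.6% and 22.7%, against 48.1% and 20.3%). With median centring these were 11 and 5 in both comparisons (50% and 22.7%), against 30.8% and 30.7%, and 31.3% and 31.8%, of all genes in that fit. Fyb, an adaptor of leukocyte integrin signalling, had the largest rise over all lists and went from 14.7 ± 0.711 FPKM to 69.0 ± 3.01 and 68.5 ± 1.95 (log2 differences 2.15 and 2.14, SE 0.04). Lyn, the gene of a Src-family kinase, rose as well, with log2 differences of 1.58 and 1.54 (SE 0.04). Src itself fell from 9.04 ± 1.81 FPKM to 3.07 ± 0.273 and 3.06 ± 0.242 (-1.28 and -1.29, SE 0.10). It had the largest fall of this list and is named here after its values were seen. Ptk2b, the gene of the kinase Pyk2, was higher by 0.90 and 0.88 (SE 0.05). Syk was at 57.7 ± 1.31, 60.7 ± 4.61 and 59.8 ± 1.97 FPKM and did not pass the test (adjusted p = 0.18 and 0.33), but did as higher after rescaling to TPM (0.016 and 0.021).

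Of 20 tested genes of extracellular ligands, 14 were higher and 2 lower for miR-144 (70% and 10%, against 47.1% and 20.1% of all genes) and 16 and 2 for miR-451a (80% and 10%, against 48.1% and 20.3%). With median centring 12 and 3 were called for miR-144 (60% and 15%, against 30.8% and 30.7% of all genes in that fit). For miR-451a these were 14 and 2 (70% and 10%, against 31.3% and 31.8%). Those higher include the fibroblast collagen genes Col1a1 and Col1a2, named here after their values were seen, and the fibroblast marker sum given above, mostly Col1a1, moved with them. Its part in the counts was not tested. Lama5, a laminin gene at 0.633 FPKM in control and 1.16 and 1.21 in the miRNA groups, passed the filter through the miRNA groups. Its direction is thus set by the filter, and it counts among the rises of this list and of all lists together. Both ligands called lower without centring were among the 3 largest falls over all lists. Vwf, a ligand of platelet and αv integrins, fell from 43.5 ± 1.86 FPKM to 7.10 ± 0.784 and 6.94 ± 0.690 (log2 differences -2.46 and -2.49, SE 0.07). Mfge8, which bridges dying cells to αv integrins, fell from 159.9 ± 20.4 FPKM to 39.4 ± 2.05 and 36.4 ± 3.02 (-1.99 and -2.10, SE 0.08). Of 8 tested integrin-associated tetraspanins, 4 rose and 3 fell with either miRNA, with and without median centring (50% and 37.5%). The shares of all genes in each fit are those given for the ligands. Cd9 fell from 323 ± 8.46 FPKM to 78.6 ± 10.7 and 74.5 ± 8.09 (-2.04 and -2.11, SE 0.09). Of 18 selectins and other junctional molecules only 4 had a mean of 1 FPKM, of which Cd99l2 was higher and Alcam lower in both comparisons and Cd47 was higher for miR-451a, genes named here after their values were seen. The miR-451a call of Cd47 (0.45, SE 0.14, adjusted p = 0.011) was lost with median centring (adjusted p = 0.072), and for miR-144 it was called only without miR-144 sample 4 (adjusted p = 0.0070, against 0.13 with it). Vwf is also an endothelial and platelet product. The endothelial marker sum, mostly Kdr, was higher in every miRNA sample, with Stab2 overlapping between the groups. The platelet marker sum had medians of 12 FPKM in control, 6.51 in miR-144 and 7.52 in miR-451a TAMs, a fall that was that of Pf4, and the means of Ppbp, Gp1ba, Gp9 and Gp5 were higher in both miRNA groups. The part of these cells in the Vwf difference was not tested.

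**Figure D5:**
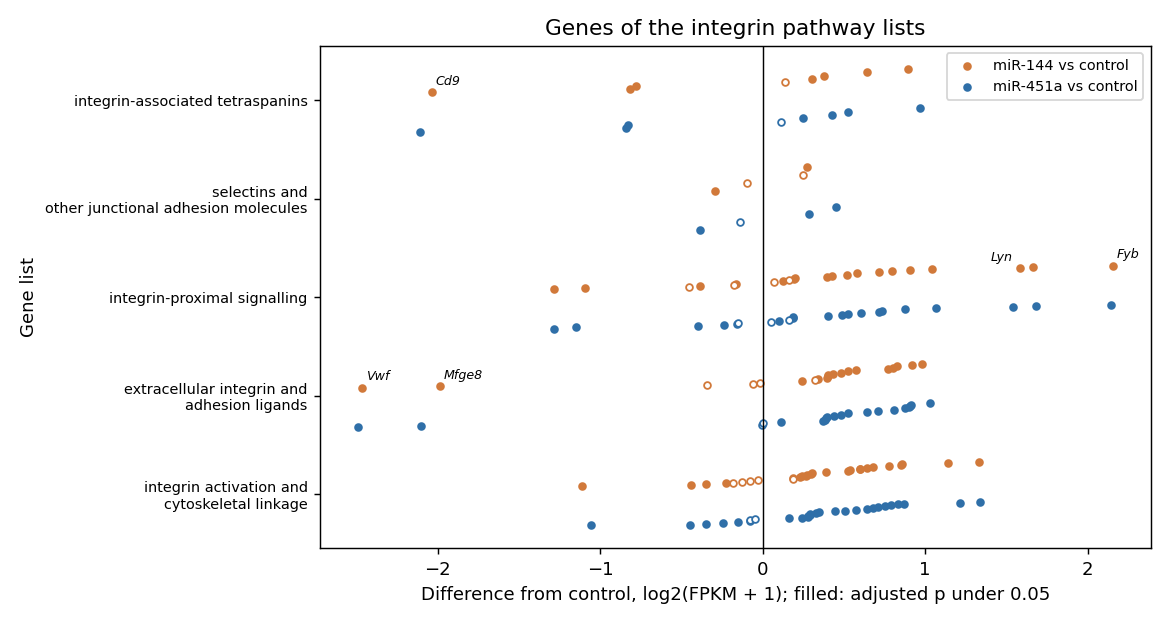
Difference from control in log2(FPKM + 1) (horizontal axis) for the 82 tested genes of the 5 pathway lists, each point 1 gene, with miR-144 in orange, miR-451a in blue and open points for genes that did not pass the test. Vwf, Mfge8 and Cd9 stand alone at the left near -2.5 to -2.0, and Fyb lies farthest to the right.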

How the data were processed

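RNA of sorted TAMs was sequenced on an Illumina instrument. The authors deposited FPKM per gene for 15 samples, and their processing notes name FastQC 0.11.2, STAR and StringTie. The genome build, the annotation, the use of strand and the way transcripts were combined into genes are not given in the sources used here, so levels of different genes are compared with caution. Groups and sample numbers come from the labels. Counts were not recovered, since only 36.3% to 49.6% of low values lay within 5% of a whole step (10% by chance).

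Differences were tested with limma 3.58.1 (R 4.3.3) after adding 1 FPKM and taking log2, a scale that understates changes of low genes. A single model held all 3 groups and let the variance follow the mean, and p-values were adjusted by Benjamini-Hochberg over genes averaging 1 FPKM or more. The fit was tested on simulated data. The level of 3 fragments was computed at the lowest depth. Gene identifiers were matched to GENCODE M21 (99.7% matched), and sequences are from GENCODE M21 and RefSeq (GRCm38.p6). Exons of opposite-strand genes overlap Itga4, Itga7, Itga8, Itgad, Itgav, Itgb4, Icam1, Icam4 and Vcam1, whose reads could not be told apart without strand. The members and lists were chosen with earlier results of these data known. All 34 members are named. Of the pathway lists the 3 largest rises and falls called in both comparisons with control are named, with Tln1, Fermt3, Rap1b, Apbb1ip, Ptk2b and Syk, except 1 gene that is not reported here. Python 3.11.15, numpy 2.4.6, pandas 2.3.3 and matplotlib 3.10.9 were used for the other steps.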

Additional observations from a re-analysis of the deposited data

Results flagged for a closer look

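Among 66 groups of 5 samples of the tested adhesion rows and the summed Itgam rows, 2 held a sample far from the others, where chance gives about 1 in 20, or 3.3. In miR-451a TAMs, sample 2 had 16.5 FPKM of Itgav, and the nearest other sample had 10.01 FPKM. In control TAMs, sample 2 had 48.2 FPKM of Cd44, against 51.2 FPKM in the nearest other sample, and without it the Cd44 differences were -1.17 and -1.16 on the log2(FPKM + 1) scale.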

How the results depend on the processing

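The counts of called adhesion rows stayed within 1.5 times of 18 under every alternative run, except the 11 called for miR-451a with a mean of at least 5 FPKM, a filter that leaves 14 rows. Without single samples they were 17 to 18 (miR-144) and 16 to 18 (miR-451a), and 0 between the miRNA groups. Those of the pathway genes were 65 to 68 and 70 to 72. Itgb1 changed sign with median centring, to -0.108 in both comparisons. Of 1884 values for single genes under the alternatives, 1843 kept their call, 32 lost and 7 gained one, and the 2 others are those of Itgb1. The sample numbers were not taken as pairs, since the labels name nothing shared and 8 of 15 same-numbered pairs, not all, correlated above 0.1 (range -0.15 to 0.26). Of 30 best matches 12 had the same number, against 6 by chance, a hint from the data that some same-numbered samples deviate together. With the number as a replicate block, 18, 18 and 0 adhesion rows and 67 and 72 pathway genes were called. The cause of these shifts was not tested. FPKM carries no counting error, so low genes are the least certain.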

Other observations

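In the 5 samples of each group, samples 3 and 4 held the highest values of Itgax, Itga9 and Vcam1 in all 3 groups, a pattern chosen after the values were seen. The labels name no batch or day for these numbers. Of all 11419 tested genes, 140 had samples 3 and 4 highest in every group and 380 had them lowest, 4.55% together. For Itga9 these samples were at 0.735 and 0.606 FPKM in control, against 0.413 to 0.506 FPKM in the others, and at 4.85 and 5.35 FPKM in miR-451a TAMs, against 2.95 to 3.29 FPKM. For Itgb7 the same samples were the lowest in both miRNA groups, at 3.43 and 3.47 FPKM for miR-144 and 4.28 and 3.61 FPKM for miR-451a.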
